A study of Mus musculus with 7 samples.

Results

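The genes described here were 2 members of the synuclein family, Sncb and Sncg, and 5 genes linked to inherited Parkinson disease, Park7, Pink1, Lrrk2, Uchl1 and Vps35. They were chosen by name, and their Ensembl identifiers were looked up in all 7 count files. Thus, 7 of 55416 gene identifiers were selected, and all 7 were among the 13152 genes that passed the filter on low counts. Their lowest count was 21 reads, for Sncg in DMSO replicate 3, and together they took 0.104% to 0.171% of the reads on genes in each library.

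RNA was extracted from the hippocampi of male, age-matched mice of the outbred CD1 stock, and no mutation or transgene is named for any group. Control mice (3 libraries, replicates 1 to 3) received no injection. ONX-0914-treated mice (2 libraries, replicates 1 and 2) were injected intraperitoneally with 10 mg/kg of ONX-0914, an inhibitor of the immunoproteasome, 2 times per week over 2 months. DMSO-treated mice (2 libraries, replicates 2 and 3) received an equal volume of the vehicle on the same schedule. The age in weeks and the pooling of animals are not given in the sources used here. The labels name the libraries only as separate replicates, so the p-values below measure the spread between these libraries.

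Synucleins are small proteins of presynaptic terminals that bind lipid membranes, and inclusions of synuclein protein in neurons are the hallmark of Parkinson disease. The other genes encode parts of the machinery that keeps mitochondria, endosomes and proteins in repair: Pink1 and DJ-1 (the product of Park7) act on damaged mitochondria and oxidative stress, Lrrk2 on the Rab proteins of vesicle traffic, Uchl1 on ubiquitin, and Vps35 on the recycling of membrane proteins from endosomes. In Parkinson disease the dopamine neurons of the midbrain are lost, whereas most of these genes are used by many neuron types, including those of the hippocampus.

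Promoter sequences are shown for 4 genes whose libraries are set against each other below: Sncb and Lrrk2, which were higher in both ONX-0914 libraries, and Sncg and Uchl1, which were far apart between them. Each sequence is a RefSeq promoter of 300 bases (250 before and 50 after the gene start) on build GRCm38.p6, 5′ to 3′ on the strand of the gene. Capitals mark GGGCGG (the GC box) and CCAAT (the CCAAT box), read on both strands, so that they also appear as CCGCCC and ATTGG. The windows lie at chr13:54766546-54766845 on the minus strand for Sncb, at chr15:91672974-91673273 on the plus strand for Lrrk2, at chr14:34374620-34374919 on the minus strand for Sncg and at chr5:66675871-66676170 on the plus strand for Uchl1.
Sncb: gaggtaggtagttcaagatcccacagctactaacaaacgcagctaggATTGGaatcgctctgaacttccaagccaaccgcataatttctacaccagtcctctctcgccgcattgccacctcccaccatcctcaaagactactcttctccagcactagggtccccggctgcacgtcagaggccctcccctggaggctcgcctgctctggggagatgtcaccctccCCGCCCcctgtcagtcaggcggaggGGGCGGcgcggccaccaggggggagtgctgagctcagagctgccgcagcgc
Lrrk2: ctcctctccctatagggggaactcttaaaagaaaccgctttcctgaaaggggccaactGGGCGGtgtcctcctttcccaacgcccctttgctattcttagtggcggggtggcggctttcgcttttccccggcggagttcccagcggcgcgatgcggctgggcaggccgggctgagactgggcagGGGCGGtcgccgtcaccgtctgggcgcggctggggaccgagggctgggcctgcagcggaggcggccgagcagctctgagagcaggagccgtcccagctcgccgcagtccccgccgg
Sncg: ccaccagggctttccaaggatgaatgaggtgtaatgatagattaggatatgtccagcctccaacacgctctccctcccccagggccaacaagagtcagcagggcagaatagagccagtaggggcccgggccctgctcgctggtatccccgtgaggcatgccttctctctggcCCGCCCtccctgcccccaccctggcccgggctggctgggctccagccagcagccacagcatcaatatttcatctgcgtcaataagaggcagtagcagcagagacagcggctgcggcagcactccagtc
Uchl1: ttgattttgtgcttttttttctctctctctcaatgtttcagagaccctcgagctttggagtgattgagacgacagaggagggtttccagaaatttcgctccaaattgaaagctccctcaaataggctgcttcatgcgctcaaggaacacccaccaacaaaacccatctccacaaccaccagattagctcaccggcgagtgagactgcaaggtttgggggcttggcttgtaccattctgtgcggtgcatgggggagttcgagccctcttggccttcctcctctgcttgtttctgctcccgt

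The table of promoters held 6 of the 7 genes, all but Vps35. CpG dinucleotides numbered 28 in the promoter of Lrrk2, 22 in Park7, 18 in Pink1, 15 in Sncb and 9 each in Sncg and Uchl1, against a median of 7 over 32841 promoters. Lrrk2 had more of them than 85.8% of all promoters. The GC box was found 2 times each in Sncb, Pink1 and Lrrk2, 1 time each in Sncg and Park7 and not in Uchl1, and 35.7% of all promoters held it. CCAAT was found 1 time, in Sncb, against 37.4% of all promoters. None of the 6 windows held the TATA box letters TATAAA, which occurred in 13.6% of all promoters, or the E-box CACGTG, which occurred in 7.15%. Neither the cAMP response element, as TGACGTCA (1.79% of all promoters), nor the antioxidant response element, as TGACNNNGC (12.4%), was found. These are matches of letters and not measured binding sites.

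In the control hippocampus, levels of the genes were compared per length, as CPM (read counts scaled to the library size by the TMM method) per kb of exon. Sncb was at 149 ± 20.7 (SD, n = 3 here and below), Uchl1 at 136 ± 19.1, Pink1 at 122 ± 4.70 and Park7 at 55.3 ± 2.55 CPM per kb. Sncg followed at 11.9 ± 1.63, Vps35 at 9.97 ± 0.441 and Lrrk2 at 2.26 ± 0.296 CPM per kb. Hence, β-synuclein RNA was at the top of the order and γ-synuclein RNA far lower. Neighbours Sncb and Uchl1 overlapped (127 to 168 and 121 to 158 CPM per kb), as did Uchl1 and Pink1 (118 to 127 for Pink1). When the longest transcript was used as the length, Park7 (146 CPM per kb) stood above Pink1 (137 CPM per kb) and Vps35 (17.7 CPM per kb) above Sncg (11.9 CPM per kb). The order of these pairs thus depended on the length chosen.

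Among the same genes, DMSO libraries averaged 148 CPM per kb of exon for Sncb, 143 for Uchl1, 136 for Pink1 and 56.3 for Park7, then 11.4 for Vps35, 9.12 for Sncg and 2.43 for Lrrk2. The ONX-0914 means were 190 CPM per kb for Sncb, 131 for Pink1, 47.3 for Park7 and 3.28 for Lrrk2, while 3 means had a wide spread, at 217 ± 120 for Uchl1, 15.8 ± 18.6 for Sncg and 14.5 ± 7.82 for Vps35 (SD, n = 2).

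**Figure D1:**
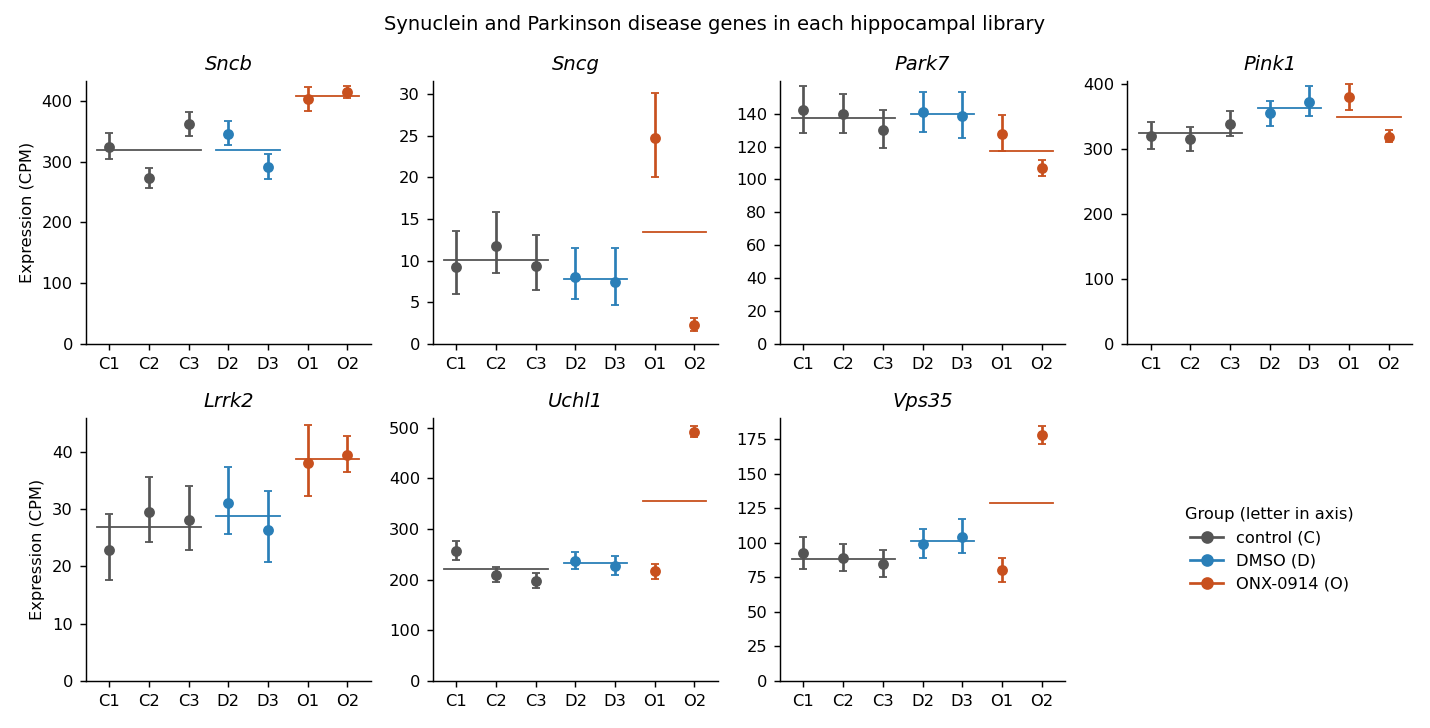
CPM of each gene (linear axis from 0) in the 3 control (C), 2 DMSO (D) and 2 ONX-0914 (O) libraries, with bars for the 95% counting interval of each library and lines for the group means. Sncb and Lrrk2 were above every other library in both ONX-0914 replicates, while Uchl1 and Vps35 were far higher in ONX-0914 replicate 2 and Sncg was the highest in replicate 1 and the lowest in replicate 2.

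The ONX-0914 libraries differed from each other before any gene was tested. Total counts on genes were 2842675 to 3877006 in 6 libraries and 13782270 in ONX-0914 replicate 2, in which mitochondrially encoded genes took 3.71% of the reads against 0.818% to 1.59% elsewhere. Summed levels of 10 pan-neuronal genes were 6330 CPM in that library, below the 10500 to 11400 CPM of control, 10100 to 11000 CPM of DMSO and 10900 CPM of ONX-0914 replicate 1. The genes of this list did not move together. Rbfox3 was at 256 and 299 CPM in ONX-0914 replicates 1 and 2 (400 to 446 CPM in control) and Snap25 at 1300 and 1420 CPM (1570 to 2060 CPM). Nefm was at 1530 and 298 CPM (977 to 1110 CPM in control) and Nefh at 520 and 101 CPM (182 to 209 CPM). Of the 10, 4 were below and 0 above every control library in both ONX-0914 libraries, against 16.3% and 16.9% of all genes. In ONX-0914 replicate 1, all 10 striatal markers lay above every control library, summing to 1390 CPM against 239 to 271 CPM in control, 236 to 262 CPM in DMSO and 208 CPM in ONX-0914 replicate 2 (Six3 and Gpr6 had no count in 1 DMSO library each). Markers of thalamus and midbrain were above every control library in 13 of 14 cases there. They summed to 1390 CPM against 148 to 164 CPM in control, 129 to 153 CPM in DMSO and 153 CPM in the other ONX-0914 library. Irx2 and Pax7 had no count in any control or DMSO library. In DMSO replicates 2 and 3, 5 and 0 striatal and 3 and 4 thalamic and midbrain markers were above every control library. In ONX-0914 replicate 2 it was 4 of each list. The share of all genes above every control library was not taken for single libraries. Conversely, 12 markers of hippocampal pyramidal and granule neurons, none of them without counts in any library, summed to 1090 and 2760 CPM in the ONX-0914 libraries (replicates 1 and 2), against 2870 to 3090 CPM in control and 2920 to 3200 CPM in DMSO. Of these 12, 7 lay below every control library in both ONX-0914 libraries and 0 above, against 16.3% and 16.9% of all genes. Among the 7 were Neurod6 (346 to 377 CPM in control, 17.4 and 192 CPM in ONX-0914) and Fibcd1 (122 to 154 CPM and 30.2 and 68.7 CPM). Wfs1 (98 to 127 CPM in control, 90.4 and 191 CPM in ONX-0914) was below control in replicate 1 and above it in replicate 2. So was Bok (44.3 to 46.7 CPM in control, 30.5 and 55.6 CPM in ONX-0914). Nrgn gave 1670 CPM of the sum of replicate 2 (1480 to 1630 CPM in control). Endothelial markers summed to 308 and 323 CPM in the ONX-0914 libraries (180 to 207 CPM in control, 197 and 237 CPM in DMSO) and microglial markers to 345 and 472 CPM (290 to 311 CPM in control, 334 and 374 CPM in DMSO). Oligodendrocyte markers summed to 5010 to 7530 CPM in control, 7790 and 9190 CPM in DMSO and 9840 and 4440 CPM in ONX-0914, so that both DMSO libraries were above control. Astrocyte markers summed to 3280 to 3890 CPM in control, 3620 and 3720 CPM in DMSO and 3930 and 2470 CPM in ONX-0914, and choroid plexus markers to 40.8 to 189, 117 and 53.9, and 74.5 and 187 CPM. As these are bulk samples, fewer cells of a type and less RNA per cell cannot be told apart.

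**Figure D2:**
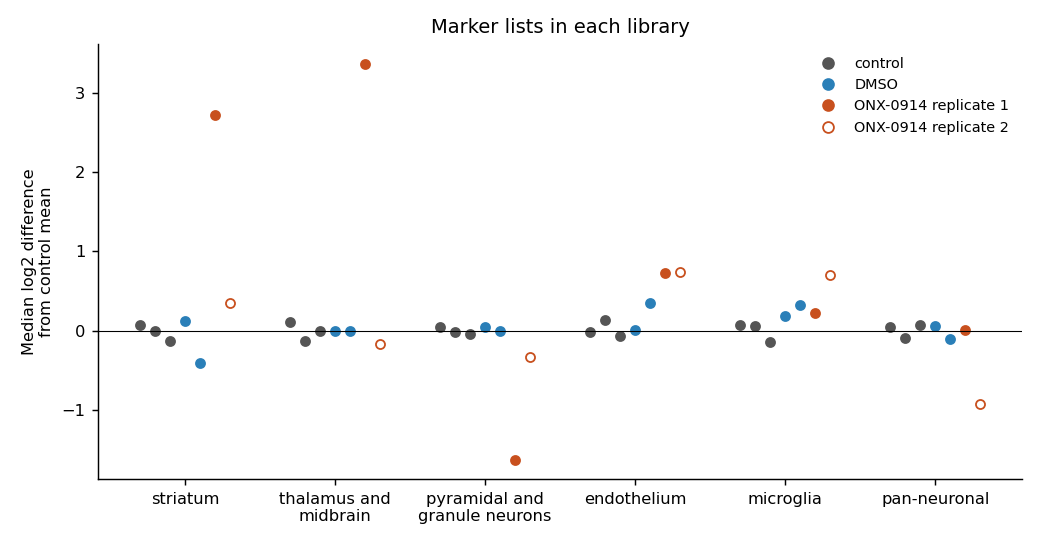
Median log2 difference from the control mean (vertical axis) over the genes of each of 6 marker lists (horizontal axis), with 1 point per library coloured by group and ONX-0914 replicate 2 as open circles. ONX-0914 replicate 1 stood at 2.72 for striatal and 3.37 for thalamic and midbrain markers and at −1.63 for hippocampal pyramidal and granule neurons, and ONX-0914 replicate 2 at −0.93 for pan-neuronal genes.

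To address whether chronic ONX-0914 administration was accompanied by altered expression of these genes, 3 comparisons were made with the quasi-likelihood test of edgeR over all 13152 genes, and a gene was called a differentially expressed gene (DEG) at a Benjamini–Hochberg FDR under 0.05. No member was a DEG in any of them. ONX-0914 against control called 0.114% of all genes, DMSO against control 0.0152% and ONX-0914 against DMSO 0.0456%. DESeq2 and limma voom also called 0 members in each (in ONX-0914 against control they called 2.65% and 0.137% of all genes with an adjusted p). At an unadjusted p under 0.05 in that comparison, DESeq2 had 1 member, Uchl1, against 7.36% of all genes, and limma voom 1, Lrrk2, against 19.8%. By edgeR at this p, ONX-0914 against control had 1 of 7 members (Lrrk2), against 18.6% of all genes, and the other comparisons 0 of 7, against 2.65% for DMSO against control and 14.7% for ONX-0914 against DMSO. The median Log2FC of the members was 0.35 in ONX-0914 against control, where all genes had 0.05, and 6 of 7 values were positive. It was 0.07 in DMSO against control (5 of 7 positive, all genes −0.003) and 0.36 in ONX-0914 against DMSO (5 of 7 positive, all genes 0.05). The comparisons share libraries and are not independent.

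Libraries of the compared groups did not overlap for 3 members in each comparison. Sncb and Lrrk2 were higher in both ONX-0914 libraries than in every control library, as were 16.9% of all genes, and Park7 was lower in both, as were 16.3%. DMSO was above control for Pink1 and Vps35 (15.7% of all genes) and below for Sncg (15%). ONX-0914 was above DMSO for Sncb and Lrrk2 (20.8% of all genes) and below for Park7 (19.7%).

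**Figure D3:**
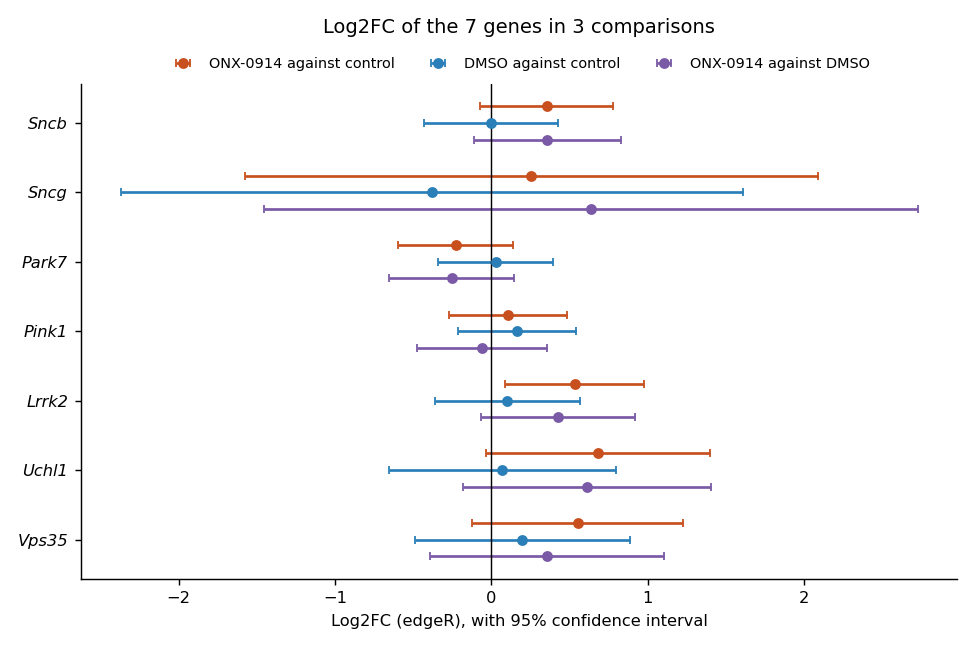
Log2FC of the 7 genes in the 3 comparisons, with bars for the 95% confidence interval from the edgeR fit. The interval of Lrrk2 in ONX-0914 against control (0.09 to 0.97) is the only one that leaves out 0, and Sncg has the widest.

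Sncb (ENSMUSG00000034891, chromosome 13) encodes β-synuclein, a presynaptic protein that is itself little prone to aggregation. Its level was 325, 273 and 361 CPM in control replicates 1 to 3, 346 and 291 CPM in DMSO replicates 2 and 3, and 403 and 414 CPM in ONX-0914 replicates 1 and 2. Both ONX-0914 libraries lay above all 5 others, and they were close to each other, whereas the control and DMSO libraries covered the same range. On average, Sncb was 1.28-fold higher in ONX-0914 than in control (Log2FC = 0.35 ± 0.185 SE, 95% interval −0.07 to 0.78, edgeR FDR = 0.334). Against DMSO, Log2FC was 0.36, with an interval from −0.11 to 0.83 (edgeR FDR = 0.421). This value was 0.48 without DMSO replicate 2 and 0.23 without DMSO replicate 3. DMSO and control differed by a Log2FC of −0.005 (interval −0.43 to 0.42). These differences did not pass the threshold, and intervals of this width do not show equal levels. Sncb was thus 1.26-fold of the control mean in ONX-0914 replicate 1 and 1.29-fold in replicate 2, and 96.3% of all genes were farther apart between these libraries.

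Sncg (ENSMUSG00000023064, chromosome 14) encodes γ-synuclein, which marks a class of Cck-expressing interneurons in the cortex and hippocampus and is abundant in several neuron types outside the forebrain. Control replicates 1 to 3 gave 9.27, 11.7 and 9.36 CPM (26, 43 and 34 reads), DMSO replicates 2 and 3 gave 8.05 and 7.5 CPM (30 and 21 reads), and ONX-0914 replicates 1 and 2 gave 24.7 and 2.25 CPM (98 and 34 reads). One ONX-0914 library was therefore the highest of all 7 and the other the lowest, and the 95% exact Poisson intervals of the counts, 20 to 30.1 CPM and 1.56 to 3.14 CPM, did not meet those of any control library (6.06 to 15.8 CPM over the 3). These intervals cover counting error only. Relative to the control mean, Sncg was 2.44-fold higher in replicate 1 and 4.50-fold lower in replicate 2. On log2 CPM with a prior count of 2, which draws low counts together, the ONX-0914 libraries differed by 9.50-fold. That distance was exceeded by 0.829% of all genes.

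Since the ONX-0914 libraries lay on opposite sides of control, their mean fell between them. Log2FC against control was 0.25 with an SE of 0.799 and an interval from −1.58 to 2.09 (edgeR FDR = 0.880). With 1 ONX-0914 library left, it was −2.18 without replicate 1 and 1.27 without replicate 2. Against DMSO the value was 0.64 (interval −1.46 to 2.73, edgeR FDR = 0.738), and DMSO against control gave −0.38 (interval −2.37 to 1.61). In the replicate with high Sncg, striatal, thalamic and midbrain markers were also high, as given above. Of 9 genes of Cck and Sncg interneurons, 4 lay above every control library in replicate 1 (Adarb2, Gad1, Gad2 and Slc32a1). In replicate 2 it was also 4 (Cck, Vip, Htr3a and Gad1), with Gad1 as the shared gene, and in each DMSO library it was 2. No share over all genes was taken for single libraries. Sums of the 9 genes were 976 to 992 CPM in control, 910 and 812 CPM in DMSO, and 1310 and 984 CPM in ONX-0914, and none was at 0. Cck itself was at 92 to 122 CPM in control, at 70.5 CPM in the first ONX-0914 library and at 270 CPM in the second, the reverse of the order of Sncg. The 12 markers of midbrain dopamine neurons were too low for a count of genes above control, as 4 to 7 of them had no read in each control library and En1, Foxa1 and Lmx1b had 0 reads in all 3 and 1 to 3 reads in ONX-0914 replicate 1. Their sums in replicates 1 and 2 were 72.0 and 42.2 CPM against 47.7 to 51.0 CPM in control and 73.8 and 68.9 CPM in DMSO. Ddc of this list was at 22.8, 19.4 and 17.1 CPM in control, 24.1 and 21.8 CPM in DMSO and 48.6 and 3.24 CPM in ONX-0914 replicates 1 and 2, so that it was high and low in the same libraries as Sncg. Nr4a2 had the reverse order (22.8, 20.7 and 27.5 CPM in control, 40.8 and 42.1 CPM in DMSO, 9.82 and 29.3 CPM in ONX-0914), and Slc18a2 was higher in both ONX-0914 libraries (5.54 and 7.4 CPM, against 3.57 to 4.09 CPM in control and 2.68 and 2.5 CPM in DMSO). Th was at 0 to 2 reads in control, 6 and 2 reads in DMSO and 5 and 20 reads in ONX-0914 (1.26 and 1.32 CPM). Slc6a3 was at 0 to 1 reads in control, 2 and 0 in DMSO and 12 and 1 in ONX-0914, and Pitx3 was at 0 in all 7 libraries. The part of these cell types in the Sncg levels was not tested.

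The ratio of the synucleins within a library does not depend on scaling. Sncg reads were 2.85%, 4.30% and 2.59% of Sncb reads in control replicates 1 to 3 and 2.33% and 2.58% in DMSO replicates 2 and 3. In ONX-0914 replicate 1 the share was 6.12%, and in replicate 2 it was 0.543%. Control and DMSO libraries thus kept within a narrow range, and the ONX-0914 libraries lay on either side of it.

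**Figure D4:**
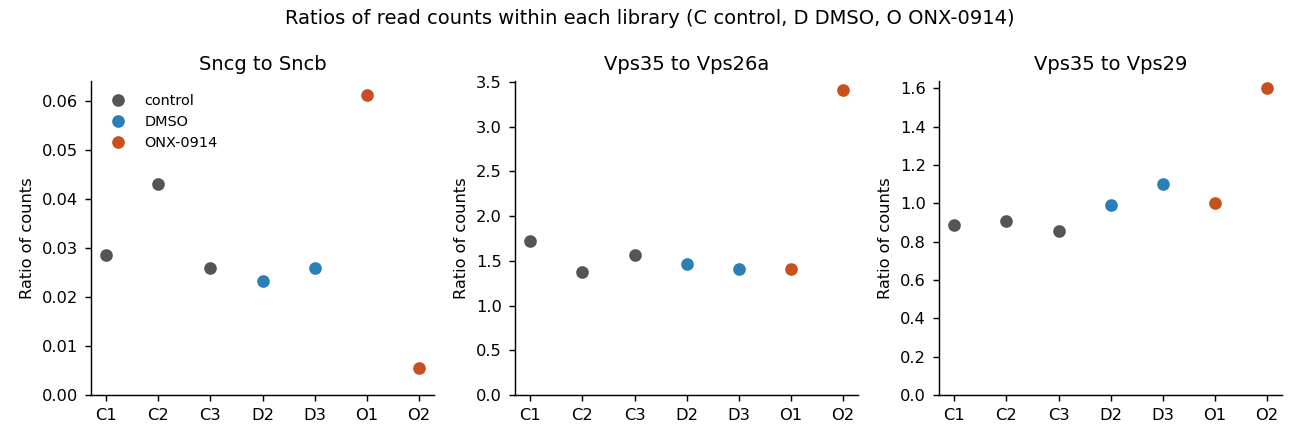
Ratios of read counts within each library: Sncg to Sncb, and Vps35 to its retromer partners Vps26a and Vps29, on linear axes from 0 with 1 point per library. Sncg to Sncb was 0.0612 and 0.00543 in the ONX-0914 libraries and 0.0233 to 0.0430 in the others, and Vps35 to Vps26a reached 3.41 in ONX-0914 replicate 2, with the rest between 1.38 and 1.72.

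Park7 (ENSMUSG00000028964, chromosome 4) encodes DJ-1, a protein that protects cells against oxidative stress. It was at 142, 140 and 130 CPM in control, at 141 and 139 CPM in DMSO and at 128 and 107 CPM in ONX-0914 replicates 1 and 2. Both ONX-0914 libraries were below all others, although replicate 1 lay close to the lowest control library. The difference from control was small, with a Log2FC of −0.23 (SE 0.160, interval −0.60 to 0.14, edgeR FDR = 0.458). It was −0.25 against DMSO (interval −0.66 to 0.15, edgeR FDR = 0.490), and DMSO stood at 0.03 from control. Without ONX-0914 replicate 1, the value was −0.37 against control and −0.395 against DMSO. Without replicate 2 it was −0.11 and −0.135, respectively.

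Of 24 tested genes of DJ-1 and oxidative stress defence (25 listed, Hmox1 not tested), none was a DEG in ONX-0914 against control. At an unadjusted p under 0.05, 5 were higher and 1 was lower, against 18.6% of all genes in either direction. The median Log2FC of the list was 0.20. Over the whole list 7 genes were above and 3 below control in both ONX-0914 libraries, against 16.9% and 16.3% of all genes. Glo1, which detoxifies methylglyoxal, was at 186, 179 and 178 CPM in control, 99.5 and 102 CPM in DMSO and 90.4 and 53.9 CPM in ONX-0914. Control was above both injected groups for this gene, with a Log2FC of −1.34 in ONX-0914 (edgeR FDR = 0.0729) and −0.84 in DMSO (edgeR FDR = 1). Glo1 was the 1 gene of the list called by DESeq2 in ONX-0914 against control, where DESeq2 called 2.65% of all genes, and limma voom called 0. Gpx1, a glutathione peroxidase, had 23.2, 16.1 and 14 CPM in control and 29.2 and 45.0 CPM in ONX-0914 (Log2FC = 1.09, edgeR FDR = 0.133). Prdx1, a peroxiredoxin, had 42.4, 49.9 and 41.6 CPM in control, 59.8 and 63.5 CPM in DMSO and 52.4 and 105 CPM in ONX-0914 (Log2FC = 0.83, edgeR FDR = 0.184).

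Pink1 (ENSMUSG00000028756, chromosome 4) encodes a kinase that accumulates on damaged mitochondria and marks them for removal by mitophagy. Control libraries had 321, 315 and 339 CPM, DMSO libraries 355 and 373 CPM and ONX-0914 replicates 1 and 2 had 380 and 320 CPM. The ONX-0914 libraries spanned most of the range of the others, and only DMSO and control were apart. Log2FC was 0.11 in ONX-0914 against control (interval −0.27 to 0.48, edgeR FDR = 0.744), 0.16 in DMSO against control (interval −0.21 to 0.54, edgeR FDR = 1) and −0.06 in ONX-0914 against DMSO (interval −0.47 to 0.36, edgeR FDR = 0.883). As a fold of control, the interval of the first comparison ran from 0.828 to 1.40. Mir7019, annotated in an exon of Pink1 on the same strand (69 bp), had no count in any library.

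In the list of 32 genes of PINK1-dependent and receptor-mediated mitophagy, 0 were DEG in ONX-0914 against control, 2 were higher and 1 was lower at an unadjusted p under 0.05, against 18.6% of all genes in either direction, and the median Log2FC was 0.01. The autophagosome protein gene Map1lc3a had 96.3, 70.1 and 76.0 CPM in control and 105 and 157 CPM in ONX-0914 (Log2FC = 0.70, edgeR FDR = 0.171). Fundc1, a mitophagy receptor, had 23.9, 24.5 and 28.1 CPM in control and 37.8 and 35.7 CPM in ONX-0914 (Log2FC = 0.52, edgeR FDR = 0.197). Tomm20, a receptor of mitochondrial protein import, had 473, 464 and 490 CPM in control and 396 and 304 CPM in ONX-0914 (Log2FC = −0.45, edgeR FDR = 0.243). The groups did not overlap for these 3 genes, which were named for their small p. Over the whole list 5 genes were above and 6 below control in both ONX-0914 libraries, against 16.9% and 16.3% of all genes. DESeq2 and limma voom called 0 of the list.

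Lrrk2 (ENSMUSG00000036273, chromosome 15) encodes a large kinase with a GTPase domain that phosphorylates Rab proteins. Control replicates 1 to 3 were at 22.8, 29.4 and 28.1 CPM (64, 108 and 102 reads), DMSO libraries at 31.1 and 26.4 CPM (116 and 74 reads) and ONX-0914 libraries at 38.0 and 39.5 CPM (151 and 598 reads). As for Sncb, both ONX-0914 libraries were above all 5 others and near each other, and 94.5% of all genes were farther apart. Relative to the control mean they were 1.42-fold and 1.48-fold higher. Log2FC against control was 0.53 (SE 0.193, interval 0.09 to 0.97, edgeR FDR = 0.210), which did not pass the threshold over all genes. It was 0.43 against DMSO (interval −0.06 to 0.92, edgeR FDR = 0.376) and 0.10 for DMSO against control (interval −0.36 to 0.56). With 1 ONX-0914 library left, the difference from control was 0.54 without replicate 1 and 0.49 without replicate 2. The summed endothelial markers were also above all 5 other libraries in both ONX-0914 libraries, as given above. The summed microglial markers were above control in both, but those of replicate 1 (345 CPM) were below those of DMSO replicate 3 (374 CPM), and Cx3cr1 and Tmem119 were lower in replicate 2 (72.7 and 37.2 CPM) than in every control library. By edgeR, no gene of either list was a DEG. The part of these cell types in the Lrrk2 level was not tested.

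Among 16 tested genes for the Rab substrates and partners of LRRK2, without Lrrk2 itself (18 listed, Rab29 and Rab43 not tested), 0 were DEG in ONX-0914 against control, 4 were lower and 0 higher at an unadjusted p under 0.05, against 18.6% of all genes in either direction, and the median Log2FC was −0.14. Rilpl1, whose product binds Rab proteins phosphorylated by LRRK2, was at 149, 160 and 176 CPM in control, 170 and 152 CPM in DMSO and 89.6 and 63.6 CPM in ONX-0914. Its groups were far apart, with a Log2FC of −1.09 (edgeR FDR = 0.0741). Rab8b was at 90.2, 104 and 101 CPM in control and 56.6 and 58.9 CPM in ONX-0914 (Log2FC = −0.77, edgeR FDR = 0.0919), and Rilpl2 at 18.9, 21.8 and 20.9 CPM in control and 13.3 and 12.1 CPM in ONX-0914 (Log2FC = −0.70, edgeR FDR = 0.158). DESeq2 called 2 genes of the list, Rab8b and Rilpl1, against 2.65% of all genes, and limma voom 0. Rilpl1, Rab8b and Rilpl2, which were named for their small p, were lower in both ONX-0914 libraries, while Lrrk2 itself was higher in both. Over the whole list 0 genes were above and 5 below control in both ONX-0914 libraries, against 16.9% and 16.3% of all genes.

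Uchl1 (ENSMUSG00000029223, chromosome 5) encodes a ubiquitin hydrolase that is among the abundant proteins of neurons and helps to maintain free ubiquitin. It was at 257, 210 and 198 CPM in control, 237 and 228 CPM in DMSO, and 216 and 493 CPM in ONX-0914 replicates 1 and 2. Replicate 1 was within the control range and replicate 2 was the highest of all libraries, 2.22-fold above the control mean and 2.27-fold above replicate 1. Of all genes, 18.2% differed more between these libraries. Log2FC against control was 0.68 (SE 0.311, interval −0.03 to 1.40, edgeR FDR = 0.283). It was 0.61 against DMSO (interval −0.18 to 1.41, edgeR FDR = 0.420) and 0.07 for DMSO against control (interval −0.66 to 0.80). With 1 ONX-0914 library left, the value against control was 1.15 without replicate 1 and −0.03 without replicate 2. Uchl1os, an antisense gene that shares 295 bp of exon with Uchl1, had 0 to 1 reads per library.

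In the library with high Uchl1, the summed pan-neuronal genes were at 6330 CPM, below all other libraries. Rbfox3 and Snap25 of this list were lower in ONX-0914 replicate 1, as given above. ONX-0914 replicate 2 was also the deepest library and had the largest mitochondrial share. With that library thinned at random to 3877006 reads, Log2FC of Uchl1 was 0.69 (edgeR FDR = 0.294). The part of its mitochondrial share or of its pan-neuronal gene levels in the level of Uchl1 was not tested.

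Other deubiquitinases were read beside Uchl1. Of 11 genes of the UCH family and related enzymes, 0 were DEG and 0 had an unadjusted p under 0.05 in ONX-0914 against control by edgeR, limma voom or DESeq2 (all genes at this p: 18.6%, 19.8% and 7.36%, respectively). By edgeR, 9 Log2FC values were negative and 2 positive, and the median was −0.11, where all genes had 0.05. Over the whole list 0 genes were above and 5 below control in both ONX-0914 libraries, against 16.9% and 16.3% of all genes. Bap1, a nuclear member of the UCH family, had 288, 269 and 258 CPM in control and 248 and 144 CPM in ONX-0914 (Log2FC = −0.47, edgeR FDR = 0.315). Usp9x, a large deubiquitinase, had a Log2FC of −0.42 (edgeR FDR = 0.317), and Psmd14, the deubiquitinase of the proteasome lid, had −0.35 (edgeR FDR = 0.360). Values for Psmd14 were 98.4, 86.2 and 80.4 CPM in control and 77.5 and 61.8 CPM in ONX-0914.

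Vps35 (ENSMUSG00000031696, chromosome 8) encodes the core subunit of retromer, the complex that retrieves membrane proteins from endosomes. Control libraries were at 92.3, 89.2 and 84.5 CPM, DMSO libraries at 99.0 and 104 CPM and ONX-0914 replicates 1 and 2 at 80.0 and 178 CPM. The ONX-0914 libraries lay on opposite sides of all others, with replicate 1 as the lowest and replicate 2 as the highest, 2.22-fold apart. DMSO was slightly above control, with a Log2FC of 0.20 (interval −0.49 to 0.88, edgeR FDR = 1). Log2FC of ONX-0914 was 0.55 against control (SE 0.294, interval −0.12 to 1.23, edgeR FDR = 0.343) and 0.36 against DMSO (interval −0.39 to 1.10, edgeR FDR = 0.597). With 1 ONX-0914 library left, the value against control was 1 without replicate 1 and −0.15 without replicate 2. Orc6, on the opposite strand, shares 171 bp of exon with Vps35. It had 25 to 46 reads in 6 libraries (7.44 to 16.4 CPM). In ONX-0914 replicate 2, where Vps35 had 2700 reads, it had 175 reads (11.6 CPM), within the range of the others per library size.

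Retromer is built from Vps35 with Vps29 and Vps26a or Vps26b, so the ratio of their reads was followed in each library. Vps35 to Vps26a was 1.72, 1.38 and 1.56 in control, 1.47 and 1.41 in DMSO, and 1.41 and 3.41 in ONX-0914 replicates 1 and 2. Vps35 to Vps29 was 0.884, 0.906 and 0.853 in control, 0.992 and 1.10 in DMSO, and 1 and 1.60 in ONX-0914. In replicate 2, both ratios were therefore higher than in every other library, as was the level of Vps35 itself. The ratios are of reads without correction for gene length, so they do not compare the levels of the subunits. Vps26b was at 221, 218 and 266 CPM in control and at 192 and 123 CPM in ONX-0914 (Log2FC = −0.58, edgeR FDR = 0.240).

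Of 22 genes of retromer and its partners, 0 were DEG in ONX-0914 against control, 3 were higher and 5 lower at an unadjusted p under 0.05, against 18.6% of all genes in either direction, and the median Log2FC was −0.07. Sort1 (sortilin, a cargo receptor) was at 776, 803 and 788 CPM in control, 765 and 640 CPM in DMSO and 413 and 562 CPM in ONX-0914 (Log2FC = −0.70, edgeR FDR = 0.158). Snx12, a sorting nexin, was at 61.7, 74.2 and 62.0 CPM in control and 49.6 and 36.7 CPM in ONX-0914 (Log2FC = −0.62, edgeR FDR = 0.173). Washc3, a subunit of the WASH complex on endosomes, was at 4.28, 3.54 and 4.13 CPM in control and 6.29 and 9.85 CPM in ONX-0914 (Log2FC = 1.07, edgeR FDR = 0.178). The first 2 were lower and the last was higher in both ONX-0914 libraries, and these genes were named for their small p. In the list as a whole, 3 genes were above and 6 below control in both, against 16.9% and 16.3% of all genes. DESeq2 and limma voom called 0 of the list.

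Other genes of inherited parkinsonism were read in the same way. Of 18 tested (20 listed, Rab32 and Gch1 not tested), 0 were DEG in ONX-0914 against control, 3 were higher and 2 lower at an unadjusted p under 0.05, against 18.6% of all genes in either direction, and the median Log2FC was −0.12. Chchd2, a mitochondrial protein gene, had 39.6, 33.0 and 32.5 CPM in control, 48.0 and 38.9 CPM in DMSO and 44.0 and 85.2 CPM in ONX-0914 (Log2FC = 0.90, edgeR FDR = 0.168). Fbxo7, a subunit of a ubiquitin ligase, had 25.3, 32.2 and 27.0 CPM in control, 28.7 and 42.8 CPM in DMSO and 42.8 and 43.5 CPM in ONX-0914 (Log2FC = 0.61, edgeR FDR = 0.207). For Chchd2, as for Uchl1 and Vps35, the higher value was that of ONX-0914 replicate 2. Over the whole list 3 genes were above and 5 below control in both ONX-0914 libraries, against 16.9% and 16.3% of all genes. DESeq2 and limma voom called 0 of the list.

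**Figure D5:**
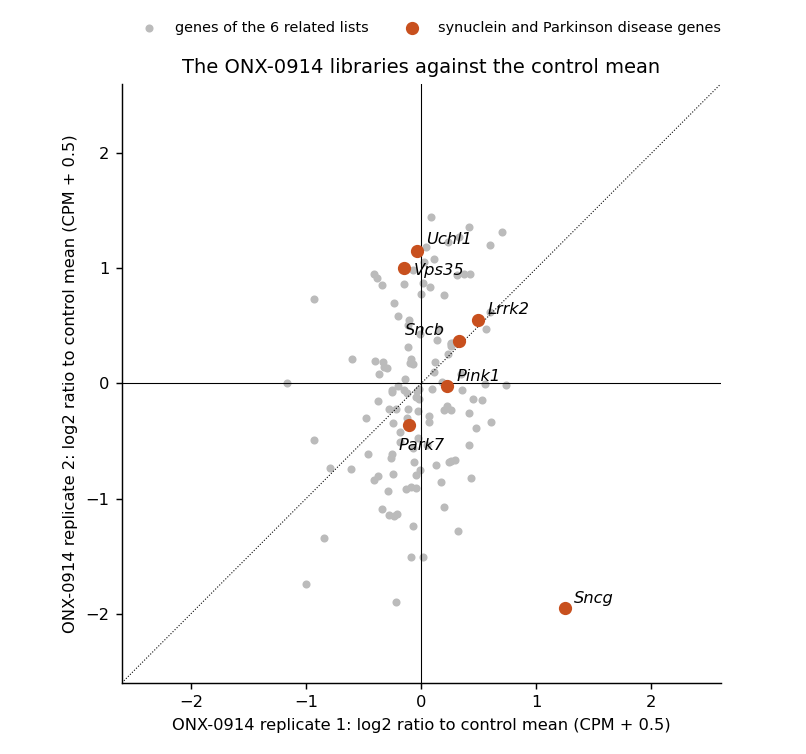
Log2 ratio of each gene to the control mean in ONX-0914 replicate 1 (horizontal) and replicate 2 (vertical), after adding 0.5 CPM, with the 7 genes in orange and the genes of 6 related lists in grey, and a dotted line where both libraries are equal. Sncb and Lrrk2 lie near the line above 0 in both, Uchl1 and Vps35 are high in replicate 2 alone, and Sncg is high in replicate 1 and low in replicate 2.

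With 1 ONX-0914 library left, the spread was estimated from the control and DMSO libraries, and the lone library was assumed to vary like them. Against control, 6 of 7 members were DEG without replicate 1 (all but Pink1), where 51.2% of all genes were DEG, and 1 of 7 (Sncg) without replicate 2, where 19% were. Against DMSO, 5 of 7 were DEG without replicate 1 (all but Pink1 and Lrrk2), against 46.1% of all genes, and 1 of 7 (Sncg) without replicate 2, against 17%. The calls of the members thus turned on which ONX-0914 library was kept.

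To describe which genes had the most similar pattern, each gene was centred on its mean log2 CPM over the 7 libraries, and the root-mean-square difference from each member was taken over 9513 genes with a mean of at least 10 CPM. For Sncg, Hap1 was nearest (0.161), followed by Tpm2 (0.196) and Erich3 (0.209). Hap1 was at 267, 257 and 294 CPM in control, 197 and 221 CPM in DMSO and 643 and 72.7 CPM in ONX-0914 replicates 1 and 2, and thus high and low in the same libraries as Sncg. Uchl1 was nearest to Sys1 (0.0603), Grn (0.0663) and Psmd8 (0.0741), and Vps35 to Rundc3a (0.0606), BC004004 (0.0681) and Ankrd13c (0.0714). Grn, the progranulin gene, had 34.6, 26.7 and 28.4 CPM in control and 27.2 and 63.2 CPM in ONX-0914. For Lrrk2 the nearest were Rps6ka3 (0.0651), Tmco1 (0.0735) and the class I gene H2-K1 (0.0840), for Sncb Dmac2 (0.0419), Agpat5 (0.0493) and Katnal1 (0.0670), for Pink1 Mospd1 (0.0302), Ranbp9 (0.0371) and Acsl3 (0.0453), and for Park7 Sec63 (0.0467), Tm9sf3 (0.0489) and 1700123O20Rik (0.0514). These distances rest on 7 libraries and were not tested.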

How the data were processed

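Total RNA of mouse hippocampus was sequenced in 7 libraries from a directional kit. The authors deposited whole-number read counts per gene, 1 file per library, without normalization. According to the submitters' processing notes, Trimmomatic 0.39, STAR 2.7.3a, featureCounts 2.00 and the build GRCm39 were used, while the annotation release and the strand setting of the counting are not given in the sources used here. Overlapping genes such as Orc6 and Uchl1os are therefore uncertain. Between 89.6% and 91.4% of the reads in the files were assigned to genes, and unassigned reads stayed out of library sizes and tests. Symbols and exon lengths came from GENCODE M21 (52135 of 55416 identifiers matched) and promoters from RefSeq, both of build GRCm38, which differs from that of the files.

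The fit was made by edgeR 4.0.16 (R 4.3.3): low counts were removed by filterByExpr (13152 genes kept), libraries were scaled by TMM, and glmQLFit and glmQLFTest were applied over all 7 libraries with 1 mean per group. Benjamini–Hochberg adjustment was made over all tested genes, with a threshold of 0.05. CPM were computed from the deposited counts and TMM-scaled library sizes. Intervals of single counts are exact Poisson intervals at 95% and cover counting error only. The edgeR steps were also run on simulated counts, with the same spread for every gene and no shift of single libraries. That run therefore does not cover libraries as far apart as those of ONX-0914. Patterns were compared on log2 CPM, with 2 as the prior count.

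Alternatives were RLE size factors, total counts, mitochondrial genes left out, no filter, at least 10 counts in every library, the legacy and robust forms of the fit, the compared groups alone, ONX-0914 against the 5 other libraries, the replicate number as a block, each library left out, DESeq2 1.42.0 and limma 3.58.1 (voom). Thinning of the deepest library was added after seeing the data. Members and lists were chosen with earlier results of these data known. All 7 members were named, and from each related list any DEG and the 3 genes with the smallest p in ONX-0914 against control. Vps26b, the single marker genes and genes named as retromer partners or overlapping genes were named beside this rule. For each member, the 3 genes nearest in pattern were named. The values of 1 gene under this rule are not reported here. Hmox1 and other untested genes had too few counts.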

Additional observations from a re-analysis of the deposited data

How the results depend on the processing

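All settings other than leaving out an ONX-0914 library called 0 members in each comparison. When each library was left out in turn, 0 to 6 members were DEG in ONX-0914 against control (6 without ONX-0914 replicate 1 and 1 without replicate 2) and 0 to 5 in ONX-0914 against DMSO (5 and 1). Sncb, Lrrk2 and Park7 kept their direction in ONX-0914 against control in all 20 settings, as they did against DMSO in all 19. Pink1 and Vps35 kept theirs in DMSO against control in all 19. Each remaining direction changed in at least 1 setting, and the cause was not tested. With libraries left out, Log2FC in ONX-0914 against control ranged from −2.18 to 1.27 for Sncg, −0.035 to 0.22 for Pink1, −0.034 to 1.15 for Uchl1 and −0.15 to 1 for Vps35. In ONX-0914 against DMSO it ranged from −1.80 to 1.65 for Sncg, −0.20 to 0.058 for Pink1, −0.11 to 1.07 for Uchl1 and −0.35 to 0.81 for Vps35. In DMSO against control it ranged from −0.14 to 0.11 for Sncb, −0.011 to 0.051 for Park7, −0.025 to 0.21 for Lrrk2 and −0.006 to 0.19 for Uchl1. With limma voom, Sncg was at −1.15 against control and −0.78 against DMSO. With total counts in place of TMM, where the median of all genes in ONX-0914 against control moved from 0.05 to 0.19, Pink1 was at 0.068 in ONX-0914 against DMSO and Sncb at 0.004 in DMSO against control. In the same setting, Park7 was at −0.09 in ONX-0914 against control and −0.13 against DMSO, nearer to 0 than with TMM, and Sncb was at 0.50 and 0.49 and Lrrk2 at 0.67 and 0.56.

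The replicate numbers are shared between groups, but nothing in the labels says that they mark a shared animal or batch, and the deviations of same-numbered libraries correlated at −0.096 to 0.064. With the replicate number as a block, Sncg was at −0.50 in ONX-0914 against control, −0.51 in ONX-0914 against DMSO and 0.005 in DMSO against control, and Uchl1 at −0.024 in DMSO against control. The block left 1 DEG among all genes in ONX-0914 against control, in place of 15, and called 0 members. Other settings moved that count widely, to 580 without a filter, 353 with DESeq2, 342 against the 5 libraries without ONX-0914 and 3 with the compared groups alone. In DMSO against control, 2 DEG among all genes became 141 with the compared groups alone and 132 or 146 without ONX-0914 replicate 1 or 2, none of them a member. The depth limits Sncg most, with 21 to 98 reads per library, followed by Lrrk2, with 64 to 598.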
